A study of Mus musculus with 6 samples.

Results

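Kit ligand (Kitl), its receptor Kit and 6 further genes were followed in cerebellar RNA of Tmem106b-/- (KO) and wild-type (WT) mice. The 6 (Sorcs3, Nxph1, Tfap2a, Tfap2b, Pax2 and Npas3) were taken as markers of the inhibitory interneurons of the cerebellar cortex or their precursors. These 8 genes, of 43346 in the table of read counts, were selected on their names and their place in the cerebellar circuit, with the KO and WT counts of the same libraries already known, so their KO and WT values, intervals and calls describe these libraries and support nothing further. Each gene had 1 row in the table, and all 8 passed the filter on low counts that left 16934 genes. Bulk RNA came from the cerebellum of 6 mice aged 15 months, 3 homozygous for the Tmem106b-/- allele and 3 WT, with 1 female and 2 males per genotype. Replicate 1 of each genotype is the female. Neither a strain nor a treatment is named in the labels, and the knockout is not tied there to any cell type. TMEM106B is a lysosomal transmembrane protein, and the study's title concerns Purkinje cell death after its loss.

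Purkinje cells, the large output neurons of the cerebellar cortex, make Kit ligand, and the molecular layer interneurons around them (basket and stellate cells) carry the Kit receptor, a tyrosine kinase, on their surface. The pair has been used in mice to study how Purkinje cells and their inhibitory inputs keep their synapses. In the mouse cerebellum, Sorcs3, a sorting receptor of the VPS10 family, and Nxph1, a secreted ligand of alpha-neurexins, are known from single-nucleus work as markers of different molecular layer interneurons. Tfap2a and Tfap2b encode AP-2 transcription factors of the GABAergic lineage. Pax2 marks the precursors of inhibitory interneurons and is retained in some Golgi cells. Npas3 encodes a transcription factor of the basic helix-loop-helix PAS family, and whole-tissue RNA does not show which cells carry it.

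The ligand and its receptor are encoded on chromosomes 10 and 5. Their promoter windows are shown because these are the genes the comparison turns on and because 2 other genes of the set encode AP-2 factors. Each window, from RefSeq on GRCm38.p6, the assembly that mm10 names, runs from 250 bases before a transcript start to 50 bases after it, on the plus strand. Capitals mark matches to the AP-2 motif GCCNNNGGC or to TATAAA, which do not overlap each other in these windows. Both strands were searched, and GCCNNNGGC reads the same on each.
Kitl, chr10:100015571-100015870: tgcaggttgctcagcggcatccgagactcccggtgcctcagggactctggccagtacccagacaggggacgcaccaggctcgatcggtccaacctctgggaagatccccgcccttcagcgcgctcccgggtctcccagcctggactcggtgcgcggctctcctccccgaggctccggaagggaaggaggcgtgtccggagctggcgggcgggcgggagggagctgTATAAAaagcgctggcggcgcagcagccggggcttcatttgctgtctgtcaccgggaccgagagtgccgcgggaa
Kit, chr5:75574737-75575036: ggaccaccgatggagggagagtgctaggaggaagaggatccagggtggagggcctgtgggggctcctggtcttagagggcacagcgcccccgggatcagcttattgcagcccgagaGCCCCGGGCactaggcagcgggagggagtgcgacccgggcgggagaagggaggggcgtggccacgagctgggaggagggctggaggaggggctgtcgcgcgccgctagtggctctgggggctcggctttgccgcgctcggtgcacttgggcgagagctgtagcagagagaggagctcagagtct
The Kitl window held TATAAA with its first base 25 bases before the start, and no match to GCCNNNGGC. In the Kit window GCCNNNGGC began 134 bases before the start. A second Kit start lies 4 bases downstream, and its window holds the same match. Of the 12 windows of the 8 genes, 3 held GCCNNNGGC, those of Kit and 1 of the 3 of Pax2, against 16.6% of all 32851 windows of the mouse table. TATAAA stood in 1 of the 12, that of Kitl, against 13.6% of all windows. A match describes letters only, and no binding was measured.

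Library totals were 25245778 to 28584165 counts in KO and 29658618 to 31135185 counts in WT, and RNA integrity numbers were 10 in all 6. Tmem106b itself was at 66.8 ± 3.64 CPM in KO and 245 ± 19.4 CPM in WT (SD, n = 3 each), lower in all 3 KO libraries (log2 fold change -1.88, SE 0.08, edgeR adjusted p = 1.37e-04). Each library comes from its own mouse, and no pair of libraries of a genotype was alike within counting error. WT replicate 1 stood apart from the others on the first principal component and KO replicate 1 on the second, both females, so values of the males alone are given where these libraries bear on a result.

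Kitl had less RNA in each of the KO cerebella. It stood at 143, 111 and 123 CPM (CPM, the count of a gene as a share of its library's TMM-scaled total) in KO replicates 1 to 3, against 192, 177 and 176 CPM in WT replicates 1 to 3. All 3 KO libraries lay below all 3 WT libraries. The raw counts behind these values were 3232 to 3645 in KO and 5236 to 5766 in WT, so counting error was small beside the spread between mice. The mean was 126 ± 16.4 CPM in KO and 182 ± 8.61 CPM in WT (SD, n = 3 each), and the KO mean was 69.2% of the WT mean. The fitted log2 fold change of KO over WT was -0.54 (SE 0.07), with a 95% interval from -0.70 to -0.37, which spans 61.5% to 77.4% of the WT level. Against the WT mice of the same sex, Kitl was at 74.8% in the KO female and at 66.2% in the KO males. In whole tissue, fewer cells of a type and less RNA per cell cannot be told apart. Kitl (ENSMUSG00000019966) lies at 100015630 to 100100413 of chromosome 10 in mm10 and overlaps no other gene of the table. Its counts cover the whole gene model, so splice forms that release or retain the ligand at the membrane were not separated.

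The receptor gene showed no such difference in these libraries. Kit was at 349, 318 and 336 CPM in KO replicates 1 to 3, against 323, 349 and 292 CPM in WT replicates 1 to 3. Its groups overlapped, with means of 334 ± 15.3 CPM in KO and 321 ± 28.6 CPM in WT (SD, n = 3 each). The log2 fold change was 0.06 (SE 0.08), with a 95% interval from -0.13 to 0.24, or 91.7% to 117.9% of the WT level. Kit (ENSMUSG00000005672, chromosome 5, 75574916 to 75656722 in mm10) also overlaps no other gene of the table. The ratio of Kit to Kitl, each as CPM per kilobase of gene model, was 2.41, 2.84 and 2.69 in KO replicates 1 to 3, against 1.66, 1.95 and 1.64 in WT replicates 1 to 3. The lowest ratio in KO was above the highest in WT. On average it was 2.64 ± 0.22 in KO and 1.75 ± 0.17 in WT (SD, n = 3 each).

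**Figure D1:**
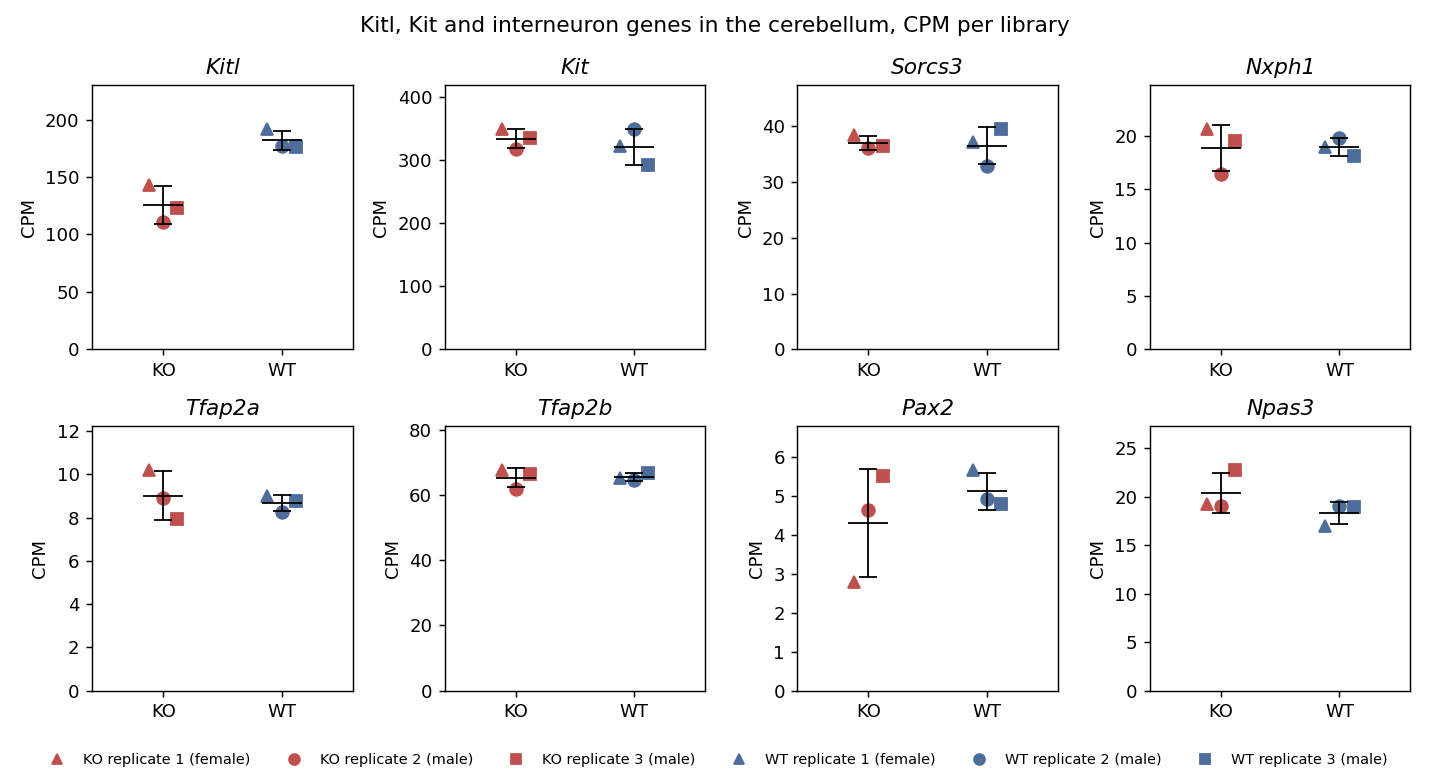
CPM of each of the 8 genes (vertical axes, from 0) in KO and WT libraries, with triangles for the females (replicate 1), circles for replicate 2, squares for replicate 3, and bars for the mean and SD of 3 libraries. Kitl is the gene with all KO points (111 to 143 CPM) well below all WT points (176 to 192 CPM), and Pax2 has a single low KO point at 2.79 CPM.

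Sorcs3 and Nxph1 were at similar levels in both genotypes. Sorcs3 was at 38.4, 35.9 and 36.4 CPM in KO replicates 1 to 3, against 37.1, 32.9 and 39.4 CPM in WT replicates 1 to 3. Nxph1 was at 20.6, 16.4 and 19.5 CPM in KO, against 19.0, 19.8 and 18.1 CPM in WT. In both genes the groups overlapped, and the log2 fold changes were 0.02 (SE 0.09) for Sorcs3 and -0.01 (SE 0.11) for Nxph1. Their 95% intervals ran from 87.5% to 117.1% of the WT level for Sorcs3 and from 83.3% to 118.1% for Nxph1. Nxph1 lies at 8948431 to 9249032 of chromosome 6 in mm10, the chromosome of Tmem106b (13069759 to 13089269). The part of sequence linked to the knockout allele in the Nxph1 values was not tested.

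The AP-2 factor genes were also close between the genotypes. Tfap2b was at 67.6, 62.0 and 66.6 CPM in KO replicates 1 to 3, against 65.2, 64.6 and 66.8 CPM in WT replicates 1 to 3. The groups overlapped, with a log2 fold change of -0.0034 (SE 0.07) and a 95% interval from 89.0% to 111.9% of the WT level. Tfap2a was at 10.2, 8.93 and 7.93 CPM in KO, against 8.98, 8.27 and 8.76 CPM in WT. Its KO libraries span the whole WT range, and its log2 fold change was 0.05 (SE 0.12). An antisense gene, Gm26688, overlaps Tfap2a on the other strand and held 58 counts over all libraries against 1519 for Tfap2a. The strand setting of the counting is not given in the sources used here.

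Npas3 and Pax2 had the widest departures among the remaining genes. Npas3 was at 19.3, 19.1 and 22.7 CPM in KO replicates 1 to 3, against 17.0, 19.0 and 19.0 CPM in WT replicates 1 to 3. Its KO libraries lay above its WT libraries by a narrow margin, 19.09 CPM in KO replicate 2 beside 19.01 CPM in WT replicate 2, and the log2 fold change was 0.15 (SE 0.10). Pax2, the gene of the set with the fewest counts, was at 2.79, 4.64 and 5.50 CPM in KO, against 5.65, 4.91 and 4.79 CPM in WT. The KO female gave the lowest value, from 71 counts, and the other KO libraries lay within or next to the WT range. The log2 fold change of Pax2 was -0.28 (SE 0.23), with a 95% interval from 57.4% to 118.8% of the WT level, and it was 0.05 without KO replicate 1 and 0.06 without WT replicate 1. Set against the WT mouse of its own sex, Pax2 was at 49.4% in the KO female and at 104.6% in the KO males.

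As a description, 1 of the 8 genes, Kitl, lay past the threshold used for all genes, an edgeR adjusted p (Benjamini-Hochberg, over all genes tested) under 0.05, where 0.283% of the 16934 genes were called and 0.148% were called lower in KO. Kitl and Npas3 were the 2 genes whose groups did not overlap. Of the genes tested, 14.1% had groups without overlap. Since the genes were chosen with this contrast known, nothing is read from these counts. The median log2 fold change of the 8 genes was 0.0072, beside 0.00029 over all genes tested, and 4 of the 8 lay below 0, beside 49.92% of all genes. Kitl was not past it without KO replicate 2, without WT replicate 2, without WT replicate 3 and without the sex term, and its log2 fold change stayed between -0.60 and -0.47 over 14 alternatives.

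In the males alone, the KO mean was 101.9% of the WT mean for Kit, 100.1% for Sorcs3, 94.8% for Nxph1, 98.95% for Tfap2a, 97.9% for Tfap2b and 110.1% for Npas3, so that of the 8 genes Kitl was again the farthest from WT.

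**Figure D2:**
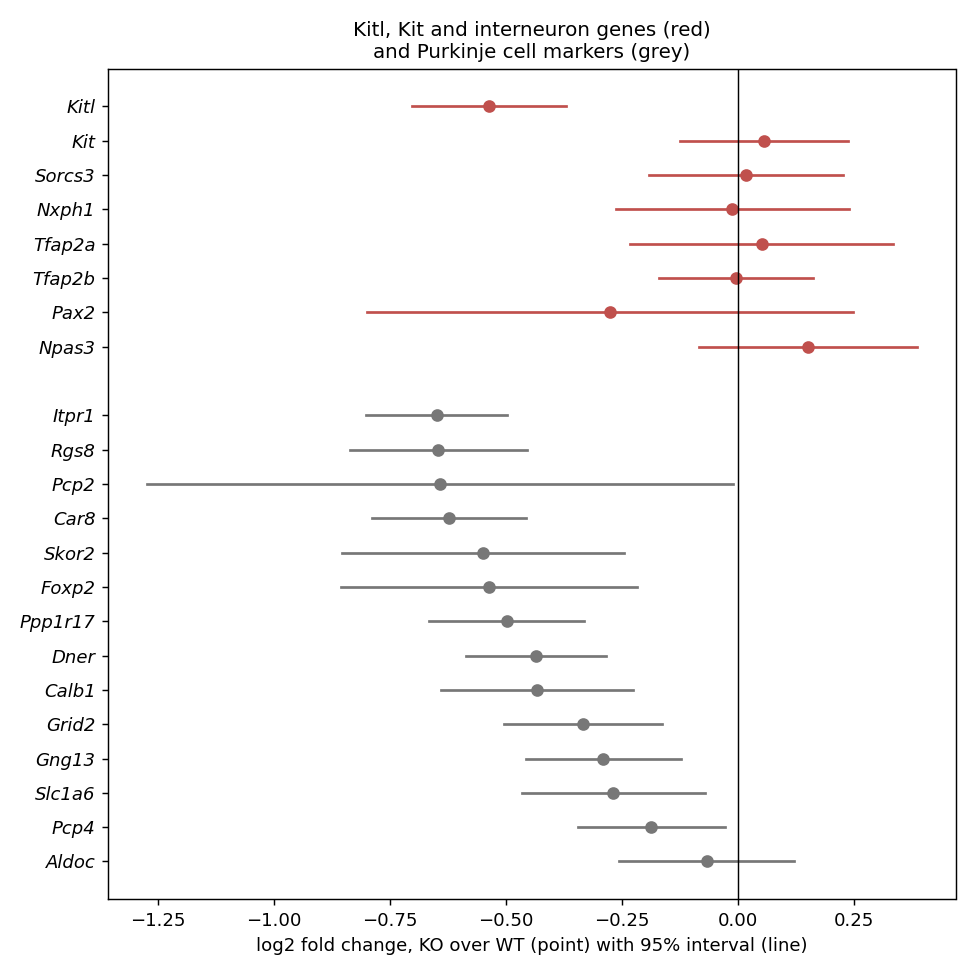
Log2 fold changes of KO over WT (horizontal axis, points) with 95% intervals (lines) for the 8 genes in red and 14 Purkinje cell markers in grey. Kitl, at -0.54, lies among the Purkinje cell markers, while the points of Kit, Sorcs3, Nxph1, Tfap2a and Tfap2b lie between -0.01 and 0.06.

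Per length, the receptor was the most abundant of the 8 genes. Kit stood at 50.1 to 59.9 CPM per kilobase over the 6 libraries, followed by Kitl at 19.2 to 33.3, Tfap2b at 9.78 to 10.7 and Sorcs3 at 5.84 to 6.999. Below them were Nxph1 at 3.46 to 4.34, Npas3 at 2.90 to 3.87, Tfap2a at 2.44 to 3.14 and Pax2 at 0.516 to 1.05 CPM per kilobase. Neighbours in this order did not overlap between libraries, except Nxph1 with Npas3 and Npas3 with Tfap2a. The spread within a genotype was widest for Pax2 in KO, with a coefficient of variation of 32.1%, against 9.19% in WT. For Kitl it was 13.0% in KO and 4.74% in WT.

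**Figure D3:**
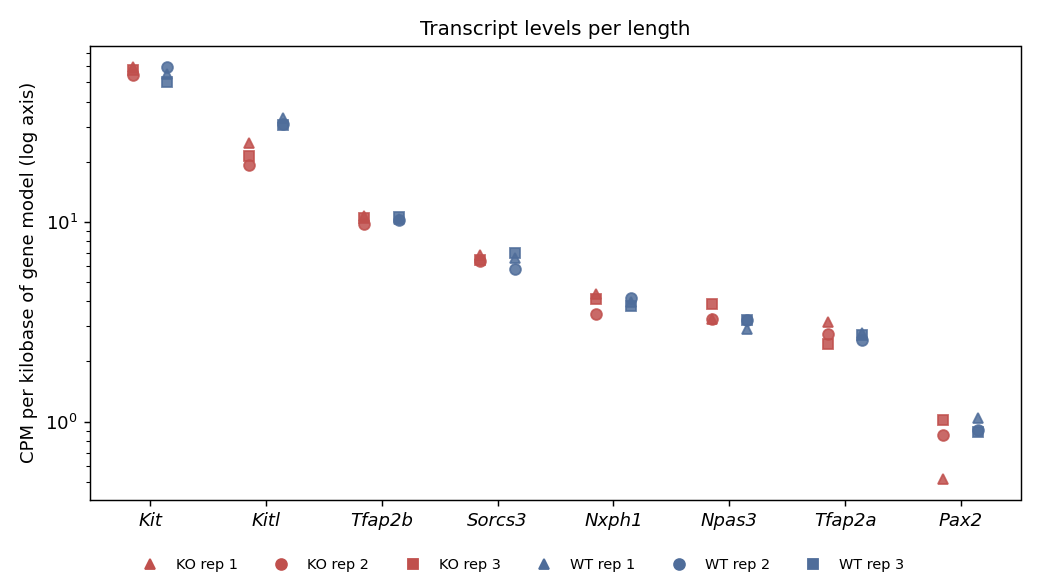
Level of each of the 8 genes per library as CPM per kilobase of gene model (vertical log axis), KO libraries in red left of WT libraries in blue, ordered from the highest to the lowest gene. Kit lies between 50.1 and 59.9 in all libraries, and the KO and WT points separate clearly in Kitl.

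Kitl and the markers of the cells that make it were lower in the same libraries. Of 14 Purkinje cell markers, 5 fell (Itpr1, Rgs8, Car8, Ppp1r17 and Dner), 9 did not pass over all genes and all 14 lay below 0, with a median log2 fold change of -0.47. Of all genes tested, 0.283% were called, 0.148% were called lower in KO and 49.92% lay below 0. The markers were listed with earlier results of these data known, so their values are a description. Itpr1, the inositol trisphosphate receptor gene, was at -0.65 (SE 0.07, edgeR adjusted p = 0.0134) and Car8 at -0.62 (SE 0.07, edgeR adjusted p = 0.0214). DESeq2 called 7 of them, limma-voom 4 and the fit with GC content and length offsets 8. Over all genes these fits called 232, 43 and 266. None of the 5 calls held without KO replicate 2, WT replicate 2 or WT replicate 3, as for Kitl, and the 5 values then lay between -0.69 and -0.39. A larger fall than that of Kitl was seen in 5 of the 14 and a smaller one in 9. Relative to the mean of the WT libraries, Kitl stood at -0.34, -0.71 and -0.56 on the log2 scale in KO replicates 1 to 3, and at 0.08, -0.04 and -0.04 in WT replicates 1 to 3. The median of the markers stood at -0.37, -0.59 and -0.44 in the same KO libraries and at 0.03, -0.05 and 0.02 in the WT libraries. The KO libraries had the same order in both, with KO replicate 1 nearest to WT and KO replicate 2 farthest from it. Kitl minus the marker median was 0.03, -0.13 and -0.12 in KO replicates 1 to 3, against 0.05, 0.02 and -0.06 in WT replicates 1 to 3 (log2 scale). The means were -0.07 ± 0.09 in KO and 0.0026 ± 0.06 in WT (SD, n = 3 each). Per 1000 CPM of summed Purkinje cell markers, Kitl had 14.0, 12.1 and 12.1 CPM in KO replicates 1 to 3, against 13.7, 13.7 and 13.0 CPM in WT replicates 1 to 3. Abundant markers weigh most in this sum, among them Itpr1 (537250 counts over all libraries), Car8 (273340) and Rgs8 (249529), each with a larger fall than Kitl. On both scales the groups overlapped through KO replicate 1, the female library that stood apart, while both KO males lay below every WT library.

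**Figure D4:**
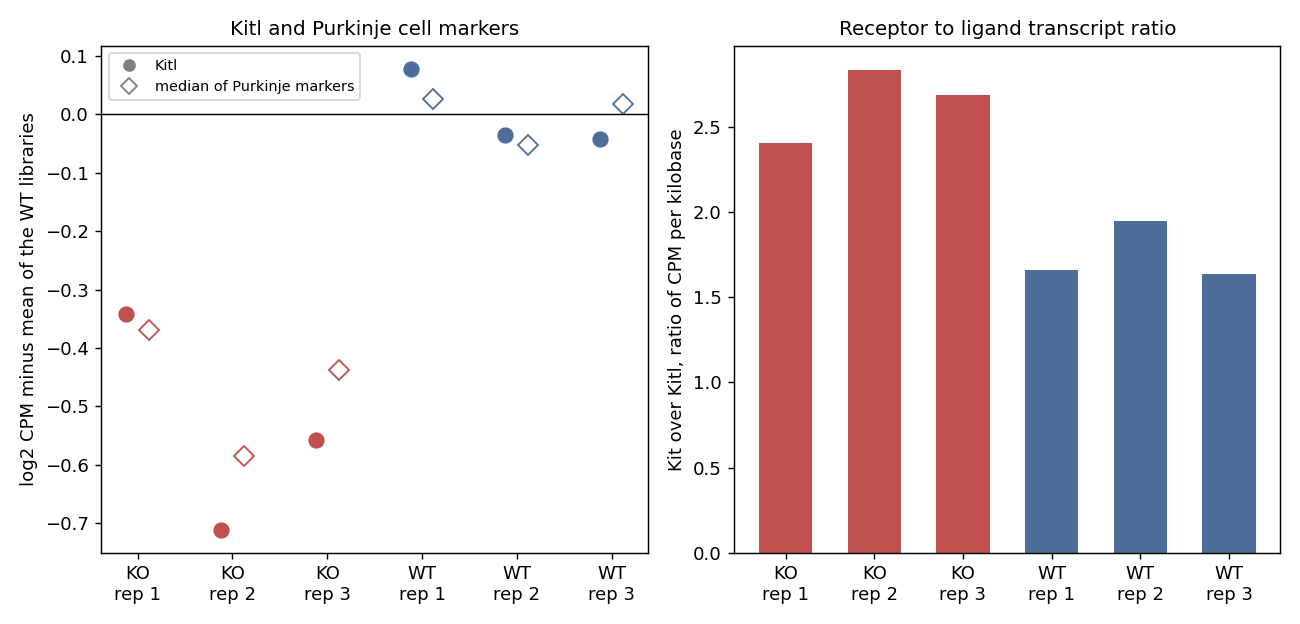
Left, log2 CPM of Kitl (circles) and the median of 14 Purkinje cell markers (open diamonds) in each library, minus the mean of the WT libraries. Right, ratio of Kit to Kitl in CPM per kilobase (bars from 0). Kitl and the markers lie between -0.71 and -0.34 in KO libraries (red), and the ratio is 2.41 to 2.84 in KO and 1.64 to 1.95 in WT (blue).

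Among the 5 genes with the profile nearest to Kitl over the 6 libraries, of 11901 whose mean reached 5 CPM, were Pde5a, Ppp1r17, Htr1b and Car8. Their root mean square differences from Kitl were 0.031, 0.037, 0.047 and 0.049 on the centred log2 scale, against 0.29 for the movement of Kitl itself about its mean. The profiles include the KO and WT difference, so such a search returns genes with a fall like that of Kitl. The log2 fold changes of these genes were -0.49, -0.50, -0.51 and -0.62, and nothing further is read from their likeness. Pde5a encodes a cyclic GMP phosphodiesterase, Ppp1r17 a phosphatase inhibitor, Htr1b a serotonin receptor and Car8 a carbonic anhydrase-related protein. Ppp1r17 and Car8 were among the Purkinje cell markers of the lists. Kit varied by only 0.089 on this scale, and the genes nearest to it were Pms1, Tbc1d32, Oxsm, Srek1ip1 and Ddx59, at 0.013 to 0.031, none of them a gene of the interneuron lists. With so little movement in Kit, nearness of profiles cannot show which cells carry it.

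Downstream of the receptor, 43 genes of Kit signalling were tested. In edgeR 0 of the 43 passed, and the median log2 fold change was 0.0051. An unadjusted p under 0.05 was seen in 7 of the 43, against 8.96% of all genes. Groups without overlap were seen in 8 of the 43, against 14.1% of all genes. These were Pik3r1, Plcg1, Ptpn6, Cblb, Grb10 and Spred2, higher in KO, and Akt2 (-0.30) and Gab2 (-0.17), lower in KO. DESeq2 called 1, limma-voom 0 and the fit with offsets 1. The adaptor gene Grb2 was at -0.13 (SE 0.08, edgeR adjusted p = 0.709). The DESeq2 call was Pik3r1, the regulatory subunit of phosphoinositide 3-kinase that binds activated receptors, at 204 ± 13.6 CPM in KO and 157 ± 5.28 CPM in WT (SD, n = 3 each). Its log2 fold change was 0.37 (SE 0.07, edgeR adjusted p = 0.101), and 14 other settings gave adjusted p-values of 0.0050 to 0.515. Ptpn6, the phosphatase SHP-1 that acts on Kit in blood cells, was at 0.62 (SE 0.15, edgeR adjusted p = 0.208), from 3.89 to 4.39 CPM in KO and 2.56 to 2.86 CPM in WT. In the same libraries 2 of 8 microglial markers rose, Lyz2 at 1.53 (SE 0.13, edgeR adjusted p = 0.0106) and Cd68 at 1.26 (SE 0.18, edgeR adjusted p = 0.044), both calls being lost without WT replicate 2 or WT replicate 3 and that of Cd68 also without KO replicate 2. Of the 8, DESeq2 called 4, limma-voom 2 and the fit with offsets 4, and 6 had groups without overlap, against 14.1% of all genes. The 8 together summed to 167 to 202 CPM in KO and 109 to 125 CPM in WT. The part of microglia in the Ptpn6 values was not tested. Pik3r1, Ptpn6 and the other Kit signalling genes without overlap were named after their values were seen.

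Genes for enzymes that can cleave Kit ligand from the membrane were measured in 3 of 4 cases. Of these, 0 passed in edgeR, DESeq2 or limma-voom, and 1 was at an unadjusted p under 0.05 in edgeR. Their median log2 fold change was -0.27. Adam17 was at 0.04 (SE 0.09, edgeR adjusted p = 0.910) and Adam19, named after its values were seen, at -0.27 (SE 0.10, edgeR adjusted p = 0.448). Receptors and ligands of the wider family (PDGF, CSF1 and FLT3 systems) gave 0 of 11 past the threshold in edgeR, DESeq2 or limma-voom and 1 at an unadjusted p under 0.05 in edgeR, with a median of -0.07. Pdgfra was at -0.0057 (SE 0.12, edgeR adjusted p = 0.992), a value that was above 0 without KO replicate 3 and without WT replicate 2.

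Further markers of the molecular layer interneurons, which include general GABAergic genes shared with Purkinje cells, had 0 of 12 past the threshold in edgeR, DESeq2 or limma-voom and 2 at an unadjusted p under 0.05 in edgeR. Their median log2 fold change was -0.06, with 8 of 12 below 0. Groups without overlap were seen in 3, Gad1 and Pvalb lower in KO and Gjd2 higher, at 108.2% of the WT mean. Of all genes tested, 14.1% had groups without overlap and 8.96% had an unadjusted p under 0.05. The 2 at an unadjusted p under 0.05 were Gad1, which encodes an enzyme of GABA synthesis, and Pvalb, the calcium buffer parvalbumin, which was named after its values were seen. Gad1 was at 786 ± 56.2 CPM in KO and 905 ± 25.6 CPM in WT (SD, n = 3 each), a log2 fold change of -0.21 (SE 0.06, edgeR adjusted p = 0.353). Pvalb was at 700 ± 30.2 CPM in KO and 824 ± 49.99 CPM in WT (SD, n = 3 each), a log2 fold change of -0.23 (SE 0.07, edgeR adjusted p = 0.319). Purkinje cells express both, so these levels sum over more than 1 cell type. Lypd6, found in molecular layer interneurons of the mouse, was at 55.9 ± 7.10 CPM in KO and 55.4 ± 2.33 CPM in WT (SD, n = 3 each), a log2 fold change of 0.0061 (SE 0.09). Gjd2 and Lypd6 were named after their values were seen.

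Markers of Golgi and Purkinje layer interneurons gave 0 of 10 past the threshold in edgeR, DESeq2 or limma-voom and 2 at an unadjusted p under 0.05 in edgeR, with a median of -0.08 and 8 of 10 below 0. Slc6a5, the neuronal glycine transporter gene of Golgi cells, was at 0.17 (SE 0.09, edgeR adjusted p = 0.625). The lowest values, named after they were seen, were those of Nrgn at -1.20 (SE 0.49, edgeR adjusted p = 0.533) and Sst, which encodes somatostatin, at -0.72 (SE 0.26, edgeR adjusted p = 0.438). Nrgn was at 0.986 ± 0.529 CPM in KO and 2.25 ± 1.18 CPM in WT (SD, n = 3 each), and its groups overlapped. Sst was at 1.01 ± 0.161 CPM in KO and 1.68 ± 0.346 CPM in WT (SD, n = 3 each), without overlap. The highest value was that of Htr2a, at 0.66 (SE 0.30, edgeR adjusted p = 0.582), also named after it was seen. Htr2a was at 0.638 ± 0.131 CPM in KO and 0.399 ± 0.031 CPM in WT (SD, n = 3 each), with all KO libraries above all WT libraries. Transcription factors of the GABAergic lineage were tested in 8 of 16 cases, and the others, Ptf1a among them with at most 2 counts in a library, were too low. In edgeR 0 of the 8 passed, 3 had an unadjusted p under 0.05, DESeq2 called 1, limma-voom 0 and the fit with offsets 1. Of all genes, 8.96% had an unadjusted p under 0.05. The median was -0.09, with 5 of 8 below 0, and 5 had groups without overlap, against 14.1% of all genes. Those 5 went both ways, with Lhx1, Skor1 and Skor2 lower in KO and Pax3 (0.11) and Pax6 (0.16) higher. Skor1, Pax3 and Pax6 were named after their values were seen. Skor2, named after its values were seen, was at -0.55 (SE 0.13, edgeR adjusted p = 0.200) and was also counted among the Purkinje cell markers. The DESeq2 call was Lhx1, named after its values were seen, a LIM homeobox gene that Purkinje cells also express, at 48.1 ± 3.99 CPM in KO and 62.8 ± 1.08 CPM in WT (SD, n = 3 each). Its log2 fold change was -0.39 (SE 0.08, edgeR adjusted p = 0.139).

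The closest relatives and partners of the interneuron genes were counted family by family. Of the AP-2 family and its cofactors, 5 of 8 were tested and Tfap2c had 0 counts in every library. For a single library, a count of 0 has an upper 95% limit of about 3 on the expected count, from counting error alone. In edgeR 0 of 5 passed with 1 at an unadjusted p under 0.05 (median 0.04). Of the partners and relatives of NPAS3, 4 of 7 were tested, Sim1 had 0 counts in every library, and 0 passed with 1 at an unadjusted p under 0.05 (median 0.16). Arnt, a dimerisation partner of PAS proteins, was at 83.3 ± 7.65 CPM in KO and 67.3 ± 1.65 CPM in WT (SD, n = 3 each), a log2 fold change of 0.31 (SE 0.08, edgeR adjusted p = 0.254), and was named after its values were seen. Npas1 had at most 4 counts in a library and was not tested. Neurexins, the receptors of neurexophilins, and the other neurexophilins gave 0 of 5 with 1 at an unadjusted p under 0.05 (median -0.06), and Nxph2 had 0 counts in every library. VPS10 sorting receptors and the neurotrophin genes linked to them gave 0 of 7 with 3 at an unadjusted p under 0.05 (median -0.11), and Sorcs1 was at -0.04 (SE 0.12, edgeR adjusted p = 0.934). In 3 of the 7, named after their values were seen, all KO libraries lay below all WT libraries, with Sorcs2 at -0.43 (SE 0.12, edgeR adjusted p = 0.300), Sort1 at -0.19 (SE 0.06, edgeR adjusted p = 0.379) and Sorl1 at -0.15 (SE 0.06, edgeR adjusted p = 0.509). Of all genes tested, 14.1% had groups without overlap in either direction and 8.96% had an unadjusted p under 0.05. DESeq2 and limma-voom called 0 in each of these 4 lists.

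Genes of the basket cell terminal around the Purkinje axon and of adhesion there gave 1 of 14 past the threshold, against 0.283% of all genes. Their median was -0.06. An unadjusted p under 0.05 was seen in 2, against 8.96% of all genes, and groups without overlap in 2, against 14.1%. The 1 past the threshold was Sema3a, which encodes a secreted guidance protein, at 18.3 ± 1.75 CPM in KO and 29.2 ± 1.68 CPM in WT (SD, n = 3 each). In whole tissue, Sema3a RNA of basket cells and of Purkinje cells cannot be told apart. All KO libraries lay below all WT libraries, with a log2 fold change of -0.68 (SE 0.09, edgeR adjusted p = 0.0359). The call was lost without KO replicate 2 (-0.62), WT replicate 2 (-0.69) and WT replicate 3 (-0.66). Kcna1, a potassium channel gene of these terminals, was at 0.10 (SE 0.07, edgeR adjusted p = 0.756).

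Other cells that carry Kit or share these markers were checked by their own genes. Of 8 mast cell markers, 7 had at most 3 counts in any library, so the defining mast cell transcripts were at or near 0. Tpsab1 and Fcer1a had 0 in all 6 libraries, with an upper 95% limit of about 3 on the expected count of each single library. The remaining 1, Hdc, was at 6.30 ± 0.44 CPM in KO and 9.27 ± 0.28 CPM in WT (SD, n = 3 each), with a log2 fold change of -0.56 (SE 0.12, edgeR adjusted p = 0.144), and was named after its values were seen. It was the 1 tested. It was not called in edgeR, DESeq2 or limma-voom, and it was called in the fit with offsets (-0.58, edgeR adjusted p = 0.0316). Its adjusted p ranged up to 0.661 over the 14 alternatives. The melanocyte genes Mlana and Tyr had at most 6 counts in a library, and the 7 melanocyte markers summed to 34.8 to 42.3 CPM in KO and 37.3 to 41.1 CPM in WT. Mitf, which is also among the Kit signalling genes, alone gave 16.6 to 21.1 CPM over the 6 libraries. The part of melanocytes in these sums was not tested. Granule cell markers, of which 0 of 9 passed in edgeR, DESeq2 or limma-voom and 3 had an unadjusted p under 0.05, had a median of 0.10. The counts of 0 also held in those 3 tools for oligodendrocyte precursors (6 tested, 2 at an unadjusted p under 0.05, median -0.08), Bergmann glia and astrocytes (8 tested, 3, -0.13), endothelial and mural cells (8 tested, 0, -0.05), meninges (8 tested, 0, 0.15), choroid plexus (8 tested, 0, 0.46) and melanocytes (5 tested, 0, -0.16). The fit with offsets called 1 of the Bergmann glia and astrocyte markers and 0 of the granule cell, oligodendrocyte precursor, endothelial and mural, meningeal, choroid plexus and melanocyte markers. Choroid plexus markers summed to 1626 to 5081 CPM in KO and 83.8 to 4722 CPM in WT, with WT replicate 1 the lowest, where Kitl was at 192 CPM and Kit at 323 CPM. Their part in the values of the 8 genes was not tested. The first genes of these lists had log2 fold changes of 0.11 for Gabra6 (SE 0.07), -0.24 for Gdf10 (SE 0.15), -0.23 for Cldn5 (SE 0.17), -0.05 for Dcn (SE 0.23) and 1.11 for Ttr (SE 1.62), with edgeR adjusted p-values of 0.709 to 0.9635.

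Males were set against females as a comparison that the choice of genes did not use. In edgeR 0 of the 8 genes passed the threshold, where 0.0354% of all genes did, and 1 had an unadjusted p under 0.05, where 6.68% of all genes did. DESeq2 and limma-voom called 0 of the 8. That 1 gene was Kitl, at 111 and 123 CPM in KO males and 177 and 176 CPM in WT males, against 143 CPM in the KO female and 192 CPM in the WT female. In each genotype the female was the highest, with a log2 fold change of males over females of -0.20 (SE 0.08, edgeR adjusted p = 0.720). The other 7 genes had log2 fold changes of males over females from -0.18 for Tfap2a to 0.26 for Pax2, with edgeR adjusted p-values of 0.765 to 0.913. With 1 female per genotype, sex cannot be told apart from those females' libraries, which are the libraries that stood apart.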

How the data were processed

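Whole numbers of reads per gene, the raw counts the authors deposited, were used for 6 cerebellar libraries, 1 per mouse, numbered within a genotype in accession order. The submitters' processing notes name STAR as the aligner and mm10 as the genome. Which tool, strand setting and annotation release the counting used is not stated in those notes or the labels, so reads shared by overlapping or antisense genes could not be assigned. Gene lengths, in bases, are other values the authors deposited, and they turn CPM into CPM per kilobase.

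Counts were fitted in R 4.3.3 with edgeR 4.0.16: filterByExpr (minimum count 10, minimum total 15), TMM scaling, and a quasi-likelihood model (robust, legacy version) with sex and genotype, 3 residual degrees of freedom, two-sided F tests and Benjamini-Hochberg adjustment over 16934 genes, threshold 0.05. SE is the absolute log2 fold change over the square root of F, and intervals use the moderated degrees of freedom. Intervals and floors cover these libraries and counting error only. List medians are over tested members. List counts of KO against WT stand beside 8.96% of all genes at an unadjusted p under 0.05 and 14.1% without overlap. log2 CPM used a prior count of 2. The fit was tested on simulated data. Alternatives were DESeq2 1.42.0, limma-voom (limma 3.58.1), scaling by RLE, all genes kept, a floor of 1 mean CPM, a model without sex, the males alone, leaving out each library, and GC content and length trends removed by loess offsets (span 0.5, GC content from GENCODE M21 transcripts for 99.0% of tested genes).

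The members and all 22 lists (231 of 232 entries found) were chosen with earlier results of these data known. Named genes were the 8 genes, Tmem106b, up to 4 genes past the threshold per list or else its first gene, the 5 profiles nearest to Kitl and to Kit, and those said to be named after their values were seen. Some genes that this rule names are not reported here.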

Additional observations from a re-analysis of the deposited data

How the results depend on the processing

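Over 14 alternatives the log2 fold change of Kitl ran from -0.60 to -0.47, within 1 SE of the reported value in each, and it was called in 10. Of the 8 genes, 0 were called without the sex term and 0 to 1 when each library was left out in turn. The genes changed between KO and WT numbered 48 as reported, 75 with RLE size factors, 199 with no filter, 76 with a mean of at least 1 CPM, 232 in DESeq2, 111 in males only and 266 with GC content and length offsets, and 1 to 156 when each library was left out. They numbered 43 in limma-voom and 61 without the sex term. Genes changed between males and females numbered 6 as reported, 41 with no filter and 57 in DESeq2, and 8 to 69 when each library was left out. None of the 8 genes was called between males and females in any alternative run for that contrast, which leaves out the fits with no sex term, males only and with offsets.

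The other genes of the set were called in 0 of 14 alternatives. Npas3 kept its sign, from 0.10 to 0.23, while those of Kit (-0.0076 to 0.14), Sorcs3 (-0.05 to 0.10), Nxph1 (-0.09 to 0.08), Tfap2a (-0.02 to 0.14), Tfap2b (-0.04 to 0.04) and Pax2 (-0.43 to 0.06) crossed 0. Signs also turned when a library was left out for Pdgfra (-0.17 to 0.12, above 0 without KO replicate 3 or WT replicate 2) and Sorcs1 (-0.18 to 0.038, above 0 without KO replicate 3), and the cause was not tested. Sema3a was not called without KO replicate 2, WT replicate 2 or WT replicate 3. Scaling by RLE moved the median over all tested genes by 0.0013 (log2). No paired analysis was possible because the labels give no replicate numbers. WT replicate 1 and KO replicates 1 and 2 share a code in their titles that the labels do not explain, so a shared origin could not be modelled. The low counts of Pax2, 71 to 170 per library, limit what can be seen in it.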
